A study of Homo sapiens with 7 samples.

Results

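The genes of the H3K4 methyltransferase complexes were described by the H3K4me3 at their own start sites, in 10 regions of the 30840 in the deposited table. The genes are the methyltransferases KMT2A, KMT2B, KMT2C, KMT2D, SETD1A and SETD1B and the partner subunits CXXC1, WDR5, ASH2L and RBBP5. A region was taken for a gene where it overlapped 3 kb either side of the gene's hg19 start site, given in whole kb. Each of the 10 windows held 1 region, and in each case the region covered the start site as the rule gives it.

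The data are ChIP-seq (sequencing of immunoprecipitated chromatin) of H3K4me3, histone H3 trimethylated at lysine 4, a mark of active promoters, in the human colon cancer line HCT116. The groups were KDM5A-/- HCT116 cells transfected with mutant KDM5A, KDM5A-/- cells transfected with wild-type KDM5A, and KDM5A-/- cells transfected with an empty vector, all harvested after 24 h. All groups thus lacked endogenous KDM5A, a demethylase that removes this mark, and the knockout cells were kept in G418; neither the residues changed in the mutant nor the number of knockout clones is stated in the sources at hand. Each group had 1 H3K4me3 library, so no difference below has a replicate check or a p-value, and every interval is a 95% interval that covers counting error only. The whole population was assayed, so a small change in all cells and a larger change in the transfected ones cannot be told apart.

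H3K4 methylation is written by a family of complexes that each hold 1 SET-domain enzyme on a common core of WDR5, RBBP5, ASH2L and DPY30. SETD1A and SETD1B, with the CpG-binding protein CXXC1 (also called CFP1), place much of the trimethylation at active promoters, KMT2A and KMT2B trimethylate H3K4 at subsets of promoters, and KMT2C and KMT2D mainly monomethylate H3K4 at enhancers. KDM5A works against these enzymes, and its ARID domain binds DNA with the letters CCGCCC. The values below concern the mark at the genes that encode these proteins, not the activity of the complexes.

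Promoter sequences from RefSeq (GRCh38.p14) were at hand for 8 of the 10 genes, as the 250 bases before each annotated start. Those of 4 genes are shown, picked by their values. Among the 8, KMT2C had the lowest ratio of wild-type KDM5A to empty vector (0.828), CXXC1 a middle one (0.893) and RBBP5 the highest (1.005). KMT2D had the highest H3K4me3 in RPM. With mutant KDM5A the order differed: CXXC1 had 0.885, the highest of the 8 after RBBP5 (0.947), and KMT2C had 0.844. Capitals mark each CCGCCC and its reverse complement GGGCGG, the letters of the GC box.
KMT2C (chr7:152436004-152436253, minus strand): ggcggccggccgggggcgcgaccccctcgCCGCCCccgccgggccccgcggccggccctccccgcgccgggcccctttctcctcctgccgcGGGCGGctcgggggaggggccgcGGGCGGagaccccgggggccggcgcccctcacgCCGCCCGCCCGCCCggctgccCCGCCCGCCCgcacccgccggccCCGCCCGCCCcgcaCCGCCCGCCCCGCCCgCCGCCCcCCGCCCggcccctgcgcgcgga
KMT2D (chr12:49060795-49061044, minus strand): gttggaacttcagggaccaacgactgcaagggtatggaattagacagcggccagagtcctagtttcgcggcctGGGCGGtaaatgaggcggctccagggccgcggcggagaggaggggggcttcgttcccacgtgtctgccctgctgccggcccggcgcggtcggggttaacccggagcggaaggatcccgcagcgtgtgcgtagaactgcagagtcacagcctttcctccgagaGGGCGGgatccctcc
CXXC1 (chr18:50287693-50287942, minus strand): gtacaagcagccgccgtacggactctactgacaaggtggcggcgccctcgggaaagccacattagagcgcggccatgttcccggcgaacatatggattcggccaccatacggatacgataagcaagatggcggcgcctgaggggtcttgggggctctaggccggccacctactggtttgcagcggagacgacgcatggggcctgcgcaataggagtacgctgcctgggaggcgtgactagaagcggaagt
RBBP5 (chr1:205121979-205122228, minus strand): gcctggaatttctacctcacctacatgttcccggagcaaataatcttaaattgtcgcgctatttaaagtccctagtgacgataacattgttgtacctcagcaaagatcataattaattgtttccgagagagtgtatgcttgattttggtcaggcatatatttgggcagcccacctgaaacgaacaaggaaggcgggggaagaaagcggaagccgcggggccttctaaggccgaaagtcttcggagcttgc

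CCGCCC was found on either strand in 6 of the 8 genes, overlapping matches counted. The 8 genes have 11 windows, and WDR5 was counted if any of its 4 windows held a match. Of 34943 RefSeq promoters of the same length, each taken as a single window, 42.5% held it. The 250 bases of KMT2C held 15 matches, 48 CG dinucleotides and 92.0% G+C, and 99.7% of promoters had fewer CG. KMT2D held 2 matches and 23 CG, CXXC1 none and 23 CG, and RBBP5 none and 12 CG, close to the median of 11 over all promoters. Of the other genes, KMT2A held 3 matches and 31 CG, KMT2B 4 and 40, and SETD1A 4 and 23. WDR5 has 4 annotated starts, whose windows held 0, 1, 2 and 5 matches and 2, 9, 23 and 39 CG. The other motifs searched on both strands were rare in these windows: CCAAT, the box bound by NF-Y, CCGGAAG, an ETS core, and the palindromic NRF1 motif, were each found in 1 gene, WDR5, and they occur in 32.0%, 8.48% and 5.04% of all promoters. All these shares are per window, so they are not like for like with counts of genes. The matches describe the letters of the windows only, and whether they go with the ratios was not tested.

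The regions were wide. SETD1B, the enzyme of a SETD1 complex, lay under 1 region of 10545 bp (hg19, chromosome 12, 122234296 to 122244840), the 11th widest of the table. It ran 7704 bp upstream and 2840 bp downstream of the start site of the rule. KMT2D, which like KMT2C works mainly at enhancers, had a region of 4977 bp (chromosome 12, 49450836 to 49455812). The start site of the rule lay 164 bp from its downstream end. SETD1A had a region of 2891 bp (chromosome 16, 30967910 to 30970800) that began 90 bp upstream of the start site of the rule and ran 2800 bp downstream. The rule gives its sites in whole kb. The annotated starts were not placed in hg19, so how far each site of the rule lies from its annotated start was not checked. These distances therefore do not settle on which side of the annotated start the regions of KMT2D and SETD1A lie. The regions of KMT2C (4424 bp, chromosome 7, 152130064 to 152134487), WDR5 (4355 bp, chromosome 9, 136999286 to 137003640), KMT2B (4153 bp, chromosome 19, 36206434 to 36210586) and KMT2A (4150 bp, chromosome 11, 118305263 to 118309412) extended over 1 kb to both sides. Those of ASH2L (3319 bp, chromosome 8, 37961231 to 37964549), RBBP5 (2796 bp, chromosome 1, 205089454 to 205092249) and CXXC1 (2633 bp, chromosome 18, 47812511 to 47815143) were narrower. For comparison, the median width was 1268 bp over all regions and 2675 bp over the 10887 regions with a mean of 20 RPM or more, called strong regions here.

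**Figure D1:**
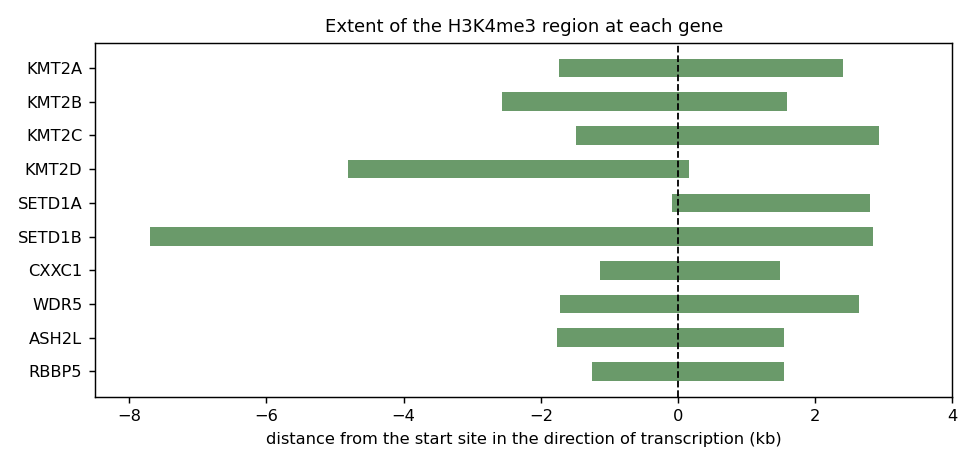
Each bar is the H3K4me3 region at 1 gene, drawn by distance in kb from the start site of the rule (dashed line) in the direction of transcription. The SETD1B region reaches 7704 bp upstream of that site. The KMT2D and SETD1A regions lie almost wholly to 1 side of it, but the site is given in whole kb and may differ from the annotated start.

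Facts of the libraries bear on every value below. Depth was 9906508 reads for mutant KDM5A, 10852411 for wild-type KDM5A and 10713021 for the empty vector, and the listed regions held 56.9%, 60.7% and 67.0% of them in that order. RPM, the reads of a region for each 1000000 reads of its library, does not remove this difference. Strong regions had a median ratio to the empty vector of 0.843 for mutant and 0.901 for wild-type KDM5A. With 1 library per group, a general fall of the mark and a difference between library preparations cannot be told apart. Each ratio of a gene is therefore read beside the strong median, and a ratio near it is not particular to the gene. All 21 regions on chromosome 12 between 380 and 500 kb, where the KDM5A gene lies, summed to 547 RPM with mutant KDM5A, 454 with wild-type KDM5A and 59.1 with the empty vector, an interval looked at with this difference already known.

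All 10 genes carried strong H3K4me3 in every library. The sum over the 10 regions was 717 RPM with mutant KDM5A, 742 with wild-type KDM5A and 850.1 with the empty vector, from 7099, 8051 and 9107 reads. As a share of the reads in regions this was 0.126%, 0.122% and 0.127%. The lowest level was that of RBBP5 in each library and the highest that of SETD1B, which ranked 74th, 64th and 41st of the 30840 regions by RPM.

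Among the SETD1 enzymes and CXXC1, SETD1B differed most between the libraries. It had 116 RPM with mutant KDM5A, 126 with wild-type KDM5A and 155 with the empty vector. The empty vector library was the highest and the intervals of both KDM5A libraries (109 to 123 and 119 to 132 RPM) lay below that of the empty vector (147 to 162 RPM). SETD1A, the other enzyme of this class, had 59.5, 62.7 and 70.8 RPM in the same order of libraries. CXXC1, which tethers SETD1 complexes to unmethylated CpG, had 52.9, 53.4 and 59.7 RPM. For both genes the empty vector library was highest, and the levels with mutant and wild-type KDM5A differed by less than their counting intervals.

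KMT2A, the trithorax homologue MLL1 that is rearranged in leukaemia, had 74.6 RPM with mutant KDM5A, 75.7 with wild-type KDM5A and 84.6 with the empty vector. KMT2B, its closest relative, had 77.1, 81.2 and 91.4 RPM. In both genes the KDM5A libraries lay close together and below the empty vector library. KMT2C had 51.7 RPM with mutant KDM5A, 50.7 with wild-type KDM5A and 61.2 with the empty vector, and the first 2 of these were in the reverse order to most members. KMT2D had 95.8, 98.4 and 115 RPM, the second highest level of the 10 genes.

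WDR5, the propeller protein that holds the core of every complex together, had 87.2 RPM with mutant KDM5A, 90.1 with wild-type KDM5A and 99.0 with the empty vector. ASH2L, a core subunit that binds RBBP5 and stimulates the enzymes, had 62.6 RPM with both mutant and wild-type KDM5A and 71.9 RPM with the empty vector. RBBP5, the core subunit that contacts the SET domain, was the exception, with 39.2 RPM with mutant KDM5A, 41.6 with wild-type KDM5A and 41.4 with the empty vector. Its 3 intervals overlapped (35.4 to 43.3, 37.8 to 45.6 and 37.6 to 45.4 RPM). Over the 10 genes, 7 had the order empty vector, wild-type, mutant from high to low. In 2 (KMT2C and ASH2L) the mutant lay between the other libraries, for ASH2L by 62.59 against 62.57 RPM. RBBP5 alone had the wild-type KDM5A library highest. The share of regions with each order was not counted. Each step of the common order was frequent among strong regions. Their ratios were below 1 in 91.4% for wild-type over empty vector, 98% for mutant over empty vector and 79.6% for mutant over wild-type.

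**Figure D2:**
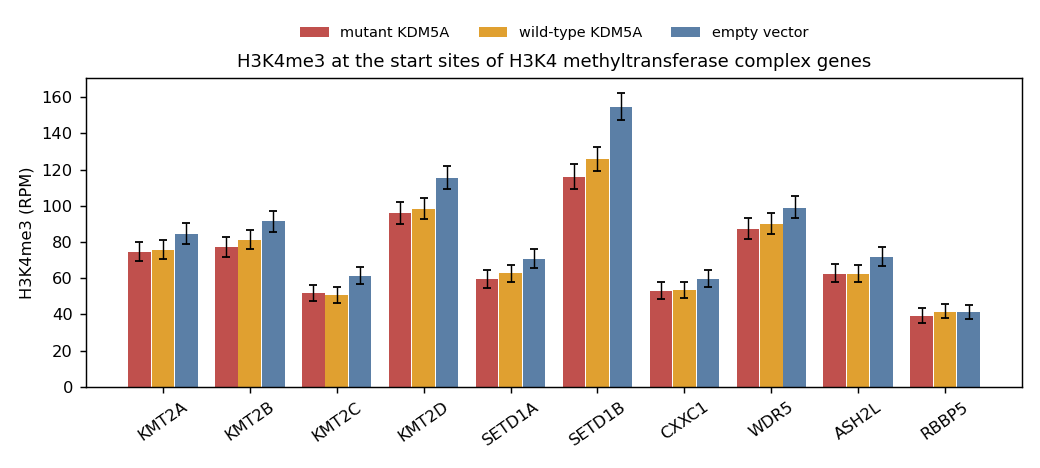
Bars give H3K4me3 in RPM at the region of each gene for mutant KDM5A, wild-type KDM5A and the empty vector (1 library each), and whiskers the exact Poisson 95% interval from the reads. The empty vector bar is the highest at 9 of 10 genes, and at RBBP5 the 3 libraries lie between 39.2 and 41.6 RPM. Among strong regions, 91.4% were lower with wild-type KDM5A than with the empty vector, and 98% were lower with mutant KDM5A.

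Between genes, levels were compared per kb of region width. They fell into 2 sets in every library: KMT2A, KMT2B, KMT2D, SETD1A, CXXC1, WDR5 and ASH2L had 18.0 to 20.6 RPM per kb with mutant KDM5A, 18.3 to 21.7 with wild-type KDM5A and 20.4 to 24.5 with the empty vector. KMT2C, SETD1B and RBBP5 had 11.01 to 14.0, 11.5 to 14.9 and 13.8 to 14.8 RPM per kb. The sets were drawn from these same values after they were seen, so the gap between them is a description and not a test. Their intervals did not meet in any library. With the empty vector the lowest of the upper set, KMT2A, had an interval of 19.1 to 21.7 RPM per kb. RBBP5, the highest of the lower set, had 13.4 to 16.2. Neighbours in order within the upper set had overlapping intervals, as had the 3 genes of the lower set with the empty vector. With mutant KDM5A, RBBP5 had 14.0 RPM per kb (12.6 to 15.5), above the interval of SETD1B (10.4 to 11.7) and just overlapping that of KMT2C (10.7 to 12.7). With wild-type KDM5A its interval (13.5 to 16.3) lay above those of both (11.3 to 12.6 and 10.5 to 12.5). The lower set thus joined the widest region, the third widest and the second narrowest of the 10. The strong regions had medians of 16.1, 17.2 and 19.0 RPM per kb for mutant KDM5A, wild-type KDM5A and the empty vector.

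**Figure D3:**
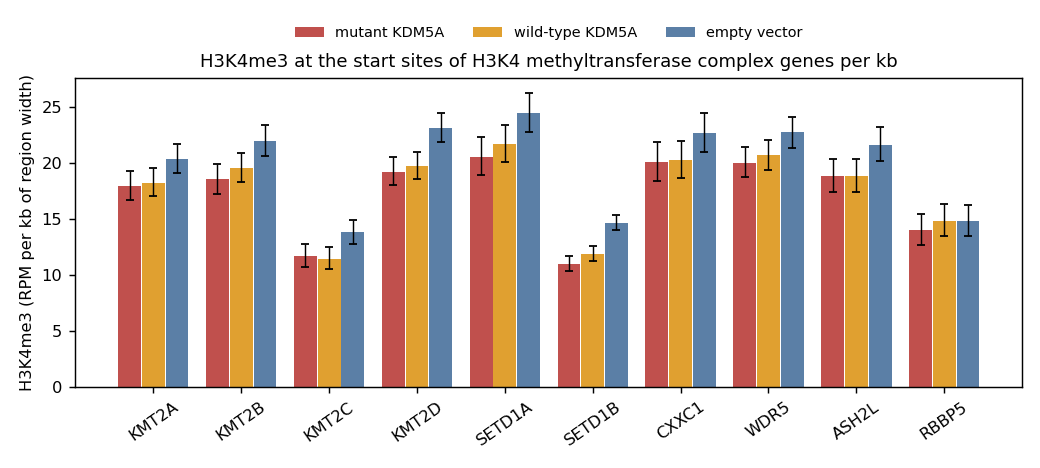
Bars give H3K4me3 in RPM per kb of region width for the same regions and libraries, with 95% Poisson intervals from the reads. KMT2C, SETD1B and RBBP5 lie at or below 14.9 RPM per kb in all 3 libraries, and the other 7 genes at or above 18.0.

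The comparison of wild-type KDM5A with the empty vector asks what returning the demethylase did to the mark. At these genes the ratio was below 1 in 9 of 10, where 66.7% of all regions and 91.4% of strong regions were below 1 on the log2 scale with a pseudocount of 0.7 RPM. The median ratio of the 10 genes was 0.887, against 0.901 over strong regions, and that of their summed reads was 0.873 (0.847 to 0.899). None was 1.5-fold lower, where 6.53% of all regions and 0.0459% of strong regions were. SETD1B had the lowest ratio, 0.812 (0.755 to 0.872), and 7.78% of strong regions had a lower one. KMT2C followed at 0.828 (0.738 to 0.928) and KMT2D at 0.853 (0.785 to 0.927). The ratios of ASH2L, SETD1A, KMT2B, CXXC1, KMT2A and WDR5 ran from 0.870 to 0.910. RBBP5 had 1.005 (0.880 to 1.15), and 92.2% of strong regions had a lower ratio. The counting interval lay below 1 in 8 of 10 genes, not in CXXC1 and RBBP5, and in 20.1% of all regions and 40.9% of strong regions. Intervals narrow with depth, and the 10 genes had more reads than most regions, so these shares are not set against each other. The interval included the strong median in 9 of 10 and lay below it in SETD1B, as it did in 5.02% of all and 4.97% of strong regions. SETD1B had the most reads of the 10 genes and so the narrowest interval.

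The comparison of mutant KDM5A with the empty vector asks the same of the mutant. All 10 genes were below 1, as were 70.5% of all regions and 98% of strong regions. The median ratio of the 10 genes was 0.857, above the 0.843 of strong regions. With the libraries scaled to a strong median of 1 the direction of the median was therefore reversed, and 3 genes were below 1. By the construction of this scaling, about as many strong regions lie below 1 as above it. The share of all regions below 1 was not counted under it. The ratio of summed reads was 0.843 (0.817 to 0.870). SETD1B again had the lowest ratio, 0.750 (0.695 to 0.809), and 7.52% of strong regions had a lower one. No gene was 1.5-fold lower, where 8.15% of all and 0.432% of strong regions were. KMT2D, SETD1A, KMT2B and KMT2C had 0.830, 0.840, 0.844 and 0.844, and ASH2L, WDR5, KMT2A and CXXC1 0.871 to 0.885. RBBP5 had 0.947 (0.824 to 1.09), the 1 gene whose counting interval included 1. The interval lay below 1 in the other 9, in 31.7% of all and 69% of strong regions. The SETD1B interval lay below the strong median, as in 5.12% of all and 5.64% of strong regions, and the other 9 included it. The intervals of SETD1B and RBBP5, picked as the extremes after their values were seen, did not overlap in either comparison. Both comparisons share the 1 empty vector library.

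**Figure D4:**
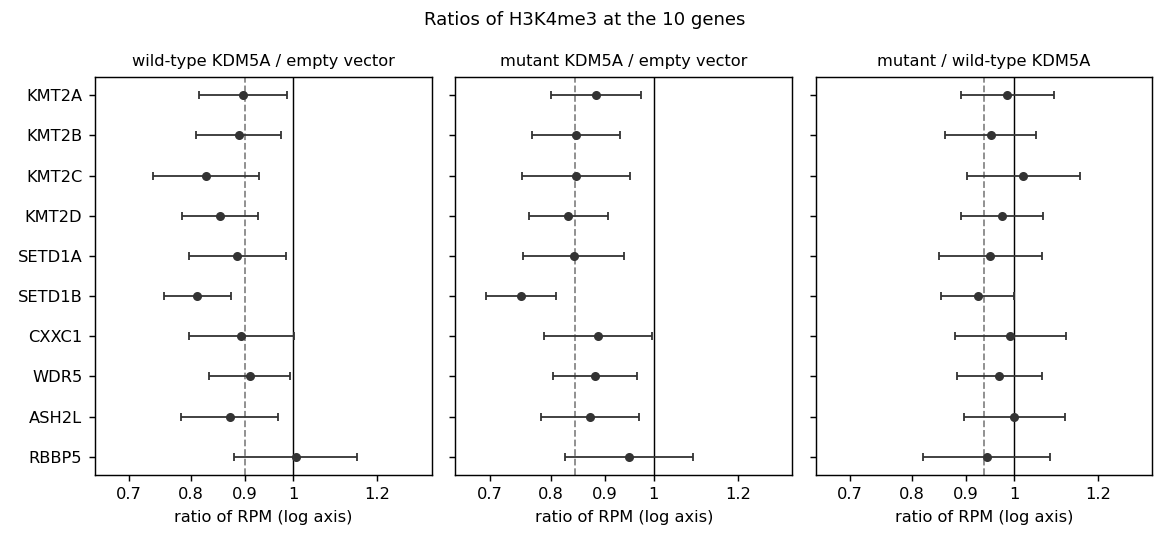
Points are ratios of RPM at the 10 genes on a log axis for the 3 pairs of libraries, and whiskers exact conditional 95% intervals from the reads. The solid line marks 1 and the dashed line the median of the 10887 strong regions (0.901, 0.843 and 0.937 from left to right), which the interval of each gene includes except that of SETD1B, the gene with the most reads, in the first 2 panels.

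Mutant and wild-type KDM5A were then set against each other. Mutant over wild-type KDM5A gave ratios below 1 in 8 of 10 genes, where 63.7% of all and 79.6% of strong regions were below 1. The median of the 10 genes was 0.971 and that of strong regions 0.937. With the libraries scaled to a strong median of 1 the direction was reversed, with 1 gene below 1. Under this scaling about as many strong regions lie below 1 as above it, and the share of all regions was not counted. SETD1B had the lowest ratio, 0.924 (0.854 to 1.0005), and KMT2C the highest, 1.02 (0.902 to 1.15). ASH2L was at 1.0003 (0.896 to 1.12), with 620 reads with mutant and 679 with wild-type KDM5A. No gene was 1.5-fold lower, where 5.45% of all and 0% of strong regions were. The counting interval included 1 in all 10 genes. It lay below 1 in 10.8% of all and 20.7% of strong regions, a share that again moves with depth. It also included the strong median in all 10, and lay below that median in 4.07% of all and 5.25% of strong regions. Over the summed reads the ratio was 0.966 (0.935 to 0.997). A difference between the forms of KDM5A was thus not detectable at any single gene at this depth.

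By role, the classes differed little. The SETD1 enzymes with CXXC1 had summed ratios to the empty vector of 0.801 (0.758 to 0.846) with mutant and 0.847 (0.804 to 0.893) with wild-type KDM5A, and most of that came from SETD1B. KMT2C with KMT2D had 0.835 (0.779 to 0.895) and 0.844 (0.789 to 0.903), KMT2A with KMT2B 0.862 (0.805 to 0.923) and 0.892 (0.835 to 0.953), and the shared subunits WDR5, ASH2L and RBBP5 0.890 (0.837 to 0.947) and 0.915 (0.862 to 0.971). The intervals of all these classes overlapped. Among the 10 genes the wider regions had the lower ratios to the empty vector, with Pearson's r of −0.83 and Spearman's rho of −0.72 between width and ratio on log scales for mutant KDM5A and −0.67 and −0.64 for wild-type KDM5A. Without SETD1B r was −0.54 and −0.53 over 9 genes, and over strong regions it was −0.098 and −0.11. Level went with the ratio as well: mean RPM had r of −0.78 and rho of −0.65 for mutant KDM5A, and −0.62 and −0.35 for wild-type KDM5A. Without SETD1B its r was −0.62 and −0.45, and over strong regions −0.013 and −0.048. Width and level were not separated in these 10 genes. The points share the same libraries, and these values are a description. The SD of the log2 ratios among the 10 genes was 0.086 for mutant and 0.084 for wild-type KDM5A to the empty vector, where counting error alone gives 0.076 and 0.074. For mutant to wild-type KDM5A it was 0.043, below the 0.078 of counting error.

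Further regions lay within 10 kb of 3 of the start sites. The SETD1B region was flanked at 1265 bp by a region of 4301 bp (chromosome 12, 122228730 to 122233030) with 60.3 RPM with mutant KDM5A, 64.9 with wild-type KDM5A and 71.1 with the empty vector. Its ratios to the empty vector, 0.847 (0.760 to 0.944) and 0.912 (0.822 to 1.01), were close to the strong medians, with intervals that overlapped those of the SETD1B region. A weaker region on its other side (122249541 to 122250899) had 10.9, 12.1 and 13.4 RPM. Near CXXC1, 3762 bp away, a region of 2726 bp (chromosome 18, 47806023 to 47808748) had 41.1 RPM with mutant KDM5A, 41.0 with wild-type KDM5A and 52.3 with the empty vector. Its ratios of 0.786 (0.690 to 0.895) and 0.784 (0.691 to 0.890) were lower than those of CXXC1, with overlapping intervals. In RefSeq (GRCh38.p14) the next gene on that side of CXXC1 is MBD1, which encodes a protein that binds methylated CpG. Near SETD1A a region on chromosome 16 (30959629 to 30961982) had 36.5, 38.7 and 41.7 RPM.

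The other subunits of the complexes were described in the same way for 9 genes, whose hg19 start sites were placed to the kb from general knowledge of the annotation and not from a file. Each window held a strong region. With wild-type KDM5A 8 of the 9 ratios to the empty vector were below 1 (median 0.879) and with mutant KDM5A 8 of 9 (median 0.841), near or under the 91.4% and 98% of strong regions. The summed ratios were 0.885 (0.855 to 0.917) and 0.839 (0.809 to 0.870), close to those of the 10 genes. These sums take for PAGR1 a wide region that does not cover its start site. With the region over that site, a choice made after seeing the data, they were 0.905 (0.871 to 0.939) and 0.863 (0.830 to 0.897). WDR82, the subunit that links SETD1 complexes to RNA polymerase II, had 62.7 RPM with mutant KDM5A, 65.6 with wild-type KDM5A and 74.7 with the empty vector. DPY30, the remaining core subunit, had 38.9, 35.1 and 41.7 RPM, and its ratio of mutant to wild-type KDM5A, 1.11 (0.958 to 1.28), was the highest of the 19 genes. That interval included 1 and lay above the strong median, and 98.1% of strong regions had a lower ratio. DPY30 was picked as the extreme after the values were seen, and the share of strong regions with intervals above that median was not counted. HCFC1, the host cell factor bound by KMT2A, KMT2B and SETD1 complexes, had 67.5, 69.7 and 80.3 RPM.

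PSIP1, which encodes the chromatin reader LEDGF that carries KMT2A with menin to its targets, was the 1 gene of the 9 with ratios to the empty vector above 1 for both forms of KDM5A. It had 47.7 RPM with mutant KDM5A, 49.0 with wild-type KDM5A and 45.7 with the empty vector. Its ratios were 1.04 (0.918 to 1.19) and 1.07 (0.946 to 1.21), and 99.3% and 98.4% of strong regions had lower ratios. Both intervals included 1 and lay above the strong medians. The share of strong regions with intervals above these medians was not counted. MEN1, which encodes menin itself, had 33.7 RPM with mutant KDM5A, 37.9 with wild-type KDM5A and 42.6 with the empty vector, and a mutant ratio of 0.792 (0.686 to 0.914).

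The subunits particular to KMT2C and KMT2D complexes were KDM6A, an H3K27 demethylase, NCOA6, a nuclear receptor coactivator, and PAXIP1 with its partner PAGR1. KDM6A had 46.2 RPM with mutant KDM5A, 51.6 with wild-type KDM5A and 53.6 with the empty vector. NCOA6 had 47.4, 46.8 and 54.0 RPM. PAXIP1 had 72.0, 81.0 and 88.4 RPM, and its ratio of mutant to wild-type KDM5A, 0.889 (0.804 to 0.982), had an interval below 1, as had 20.7% of strong regions. The PAGR1 window held 2 regions. The stronger one, 9366 bp wide, lay upstream of the start site, with 110.2 RPM with mutant KDM5A, 118 with wild-type KDM5A and 146 with the empty vector, and ratios of 0.754 (0.697 to 0.815) and 0.811 (0.752 to 0.873). The region over the PAGR1 start site had 50.7, 52.6 and 59.8 RPM and ratios of 0.847 (0.752 to 0.953) and 0.879 (0.784 to 0.986). Like SETD1B, the wide region had ratios whose intervals lay below the strong medians, as in 5.64% of strong regions for mutant and 4.97% for wild-type KDM5A.

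**Figure D5:**
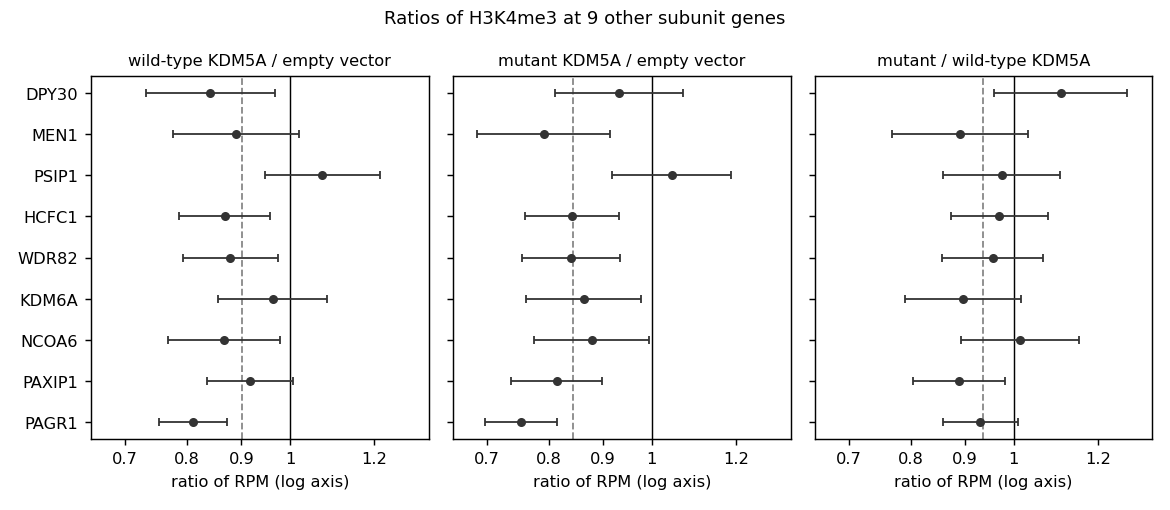
Points are ratios of RPM at 9 further subunit genes on a log axis for the 3 pairs of libraries, with exact conditional 95% intervals from the reads; solid lines mark 1 and dashed lines the strong medians. PSIP1 lies above 1 in the first 2 panels, and the wide region in the PAGR1 window has the lowest ratio in both.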

How the data were processed

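H3K4me3 ChIP-seq libraries of 3 groups were used, 1 per group; 3 input libraries and 1 pooled IgG library were not analysed here. The authors deposited RPM, reads per region scaled to 1000000 reads of the library, over 30840 regions of hg19. The submitters' processing notes name the aligner Bowtie2 2.5.4, the peak tools HOMER, MACS2 and MACS, and deepTools 3.5.6, and the calling and merging of regions is not described there. The empty vector column's header reads H3K4me4, taken as a slip for H3K4me3. All values were whole multiples of 1 step per library (0.0933 to 0.101 RPM) within 0.02 reads, which gave whole reads and library totals; a step of 0.1 gave whole multiples for at most 4.47%. With 1 library per group no count model could be fitted. PCR copies are not independent molecules.

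Levels have exact Poisson intervals, and ratios are plain ratios of RPM with conditional Clopper-Pearson intervals from reads. Counts past 1.5-fold use log2(RPM + 0.7), a scale that understates the change of weak regions. Where a window held several regions, the one of highest mean RPM was taken. All genes of both lists are named. Gene strands followed RefSeq where its table held the gene and general knowledge otherwise. The 10 genes, the other lists and the motifs were chosen with earlier results of these data known. The ratio and its interval were tried on simulated reads drawn with counting error only. That check therefore says nothing about variation between library preparations or PCR copies. Alternatives were pseudocounts of 0.07 and 3.5 RPM, 2 other scalings, windows of 1 and 10 kb, sums over windows, a 2-fold threshold and a filter at the median mean RPM (4.70). Values were computed with scipy 1.17.1, pandas 2.3.3 and numpy 2.4.6 under Python 3.11.15 and drawn with matplotlib 3.10.9.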

Additional observations from a re-analysis of the deposited data

How the results depend on the processing

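Scaling decided the direction of the small differences. As reported, the median log2 ratio of the 10 genes was −0.17 for wild-type KDM5A to the empty vector, −0.22 for mutant KDM5A to the empty vector and −0.043 for mutant to wild-type KDM5A. With a median ratio of 1 among regions of 20 RPM or more these became −0.022, 0.024 and 0.051, and with equal sums over all regions −0.029, 0.013 and 0.049, so the 2 comparisons of the mutant were reversed, by the construction of the scaling. Genes below 1 then numbered 3 and 5, in place of 10, for mutant KDM5A to the empty vector, and 1 and 1, in place of 8, for mutant to wild-type KDM5A. With the median scaling about as many strong regions lie below 1 as above it, by construction. The shares of all regions below 1 were not counted under either scaling, nor those of strong regions with equal sums. Single genes whose interval had excluded 1 also changed sign. With the median scaling, WDR5 had 0.015 with wild-type KDM5A, and with the mutant KMT2A had 0.065, KMT2B 0.0012, KMT2C 0.0014, CXXC1 0.070, WDR5 0.062 and ASH2L 0.046. With equal sums, WDR5 had 0.0072 with wild-type KDM5A, and with the mutant KMT2A had 0.054, CXXC1 0.059, WDR5 0.052 and ASH2L 0.035. In all, 178 of 210 recomputed values of single genes stayed within their counting interval, and the 32 that did not came from these scalings.

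Neither pseudocount nor window moved a median of the 10 genes beyond its counting interval, and no gene was 1.5-fold lower under any setting or 2-fold lower. With the regions below the median mean RPM left out, 1.11%, 2.36% and 0.590% of regions were at least 1.5-fold lower for wild-type KDM5A to the empty vector, mutant KDM5A to the empty vector and mutant to wild-type KDM5A, in place of 6.53%, 8.15% and 5.45%. Taking the region over the PAGR1 start site, a choice made after seeing the data, gave summed log2 ratios of −0.14, −0.21 and −0.068 for the 9 other subunits in the same order of comparisons, in place of −0.18, −0.25 and −0.077. No paired analysis was possible because each group has 1 library. A single library per group and its depth limit every ratio, and the intervals leave out variation between library preparations.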
